A study of Homo sapiens with 6 samples.

Results

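Nucleolar ribosome biogenesis genes were followed in HCT116, a human colorectal carcinoma cell line, with and without knockdown of the serine protease gene PRSS22. The set holds 46 genes chosen by symbol for their part in making ribosomes, with earlier results of these data known. All 46 were found among the 17269 genes of the deposited table. Poly(A) RNA was sequenced from 3 libraries of control cells (titled shCtrl, genotype given as WT) and 3 libraries of cells with a short hairpin RNA against PRSS22 (titled shPRSS22). Both groups were the same line, grown in RPMI1640 with serum. The hairpin sequence, the number of hairpins or clones and the time after their introduction are not given in the labels. The comparison asks how transcripts of the ribosome assembly machinery differ between the knockdown and its control.

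Ribosomes are assembled in the nucleolus around ribosomal RNA that RNA polymerase I transcribes as one long precursor. Small nucleolar ribonucleoproteins (snoRNPs) of the box C/D and box H/ACA classes place methyl groups and pseudouridines on that precursor, while a large particle, the small subunit processome, folds and cleaves the part that becomes the 40S subunit. Other factors build the 60S subunit before both are exported. Many of these genes are textbook targets of the transcription factor MYC, and rapidly growing colorectal cancer cells make many ribosomes.

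The libraries held 14920523 to 15466647 estimated counts. Levels are given as CPM, counts scaled to a common total over the tested genes with TMM normalisation factors. Fold changes are shPRSS22 against shCtrl on the log2 scale with their standard error (SE). PRSS22 itself stood at 10.1, 9.38 and 10.1 CPM in shCtrl and at 3.09, 3.16 and 2.61 CPM in shPRSS22 (log2 fold change -1.74, SE 0.135). Of 6 epithelial markers, 5 had at least 1000 counts in each library, and the 6 summed to 61785 to 65479 counts. Markers of other cells were near 0: 4 fibroblast markers summed to 3 to 7 counts in shCtrl and 5 to 20 in shPRSS22, 3 immune markers to 2 to 5 and 4 to 10, and 3 endothelial markers to 11 to 24 and 25 to 29, with CDH5 at 0 throughout. Fewer cells with a transcript and less of it per cell cannot be told apart in such bulk RNA. Whether the replicates came from separate cultures is not given, so the p-values measure only the spread between these libraries, which may be technical.

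All 46 members had enough counts to be tested, the lowest count of any member in any library being 282. Of these, 16 were lower and 3 higher in shPRSS22 (edgeR quasi-likelihood test, adjusted p under 0.05 over 13104 genes), and 27 did not pass. Lower calls took 34.8% of the members against 19.3% of all tested genes, and higher calls took 6.52% against 19.9%. Counting both directions, 41.3% of the members were called, close to the 39.1% of all tested genes. The log2 fold change was below 0 for 33 members, 71.7%, beside 51.1% of all tested genes. The median over the members was -0.074, beside -0.0056 over all tested genes. Because the members were chosen with earlier results known, these shares describe this list only. Single changes were small, from -0.45 for UTP20 to 0.23 for NOP10. At a fold change of at least 1.2, 6 members were lower (UTP20, NOB1, RRS1, NPM3, NAT10 and UBTF) and 0 higher, beside 9.94% and 8.29% of all tested genes.

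**Figure D1:**
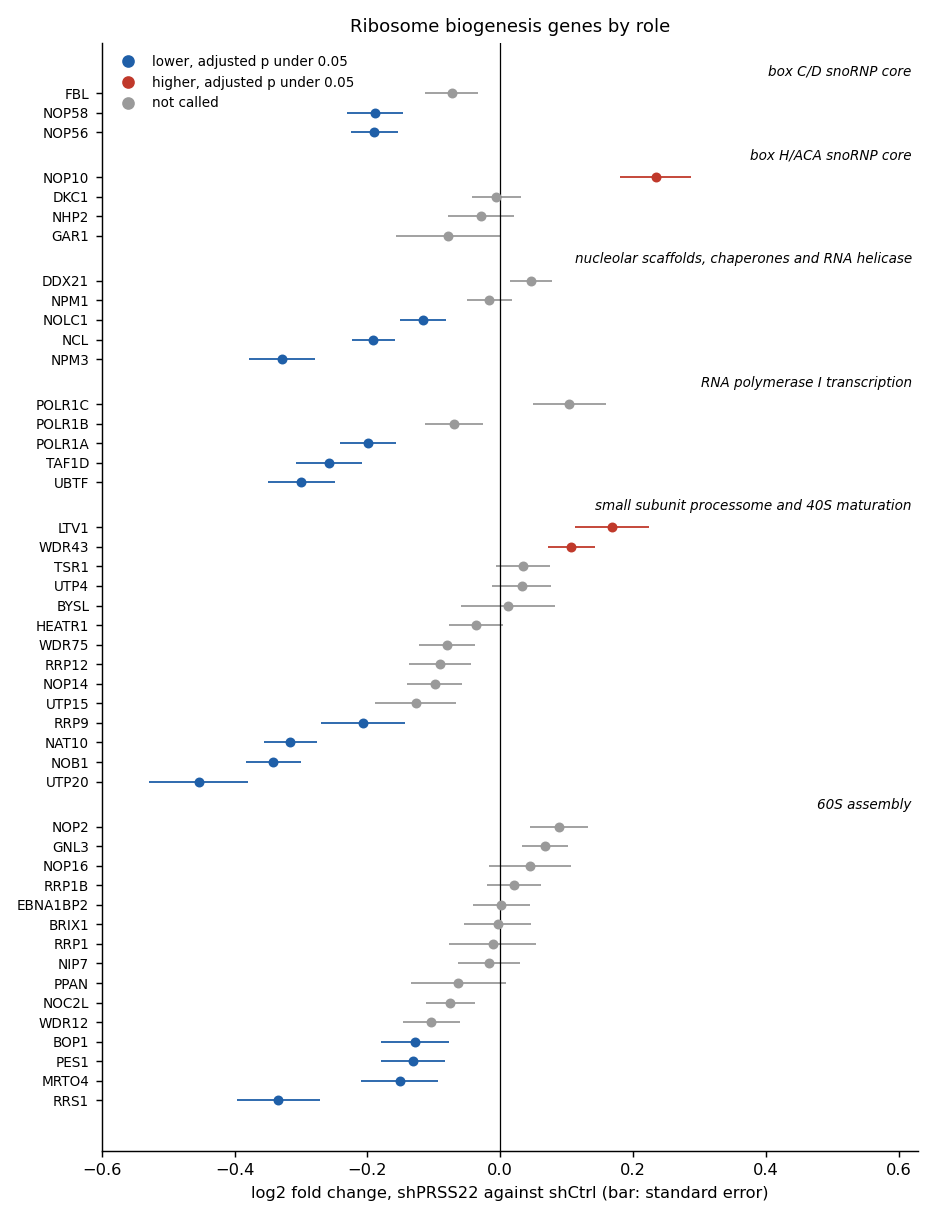
Log2 fold change of each of the 46 members (shPRSS22 against shCtrl, bars are the SE), grouped by role and coloured by whether the gene was lower, higher or not called. UTP20 at -0.45 and NOP10 at 0.23 are the extremes, and the 60S assembly genes sit mostly near 0.

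The lean was seen library by library. In shPRSS22 replicate 1, 28 members lay below all 3 control libraries and 13 above, 60.9% and 28.3%, where 37.3% and 36.6% of all tested genes did so. Replicate 2 had 28 below and 10 above (60.9% and 21.7%, against 37.4% and 36.8% of all tested genes). Replicate 3 had 25 below and 8 above (54.3% and 17.4%, against 38.6% and 37.1%). The groups did not overlap for 19 members lower and 5 higher, 41.3% and 10.9%, beside 24.3% and 24.2% of all tested genes; in either direction this was 24 members, 52.2%, beside 48.6%.

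Together the members took 0.580%, 0.575% and 0.586% of the counts of shCtrl replicates 1 to 3 and 0.555%, 0.552% and 0.548% of those of shPRSS22 replicates 1 to 3. Each knockdown library lay below each control library. Without NPM1 and NCL, the most counted members, the shares were 0.380% to 0.390% in shCtrl and 0.366% to 0.370% in shPRSS22, again without overlap. Centred on the 6 libraries, the mean log2 level of the members was 0.044, 0.025 and 0.057 in shCtrl and -0.045, -0.031 and -0.050 in shPRSS22. A list of 12 proliferation genes stood at -0.071, -0.015 and -0.24 in shCtrl and 0.29, 0.27 and -0.24 in shPRSS22. Of these 12 genes 3 were higher, 1 lower and 8 not called, 25% and 8.33% beside 19.9% and 19.3% of all tested genes. Their level was lowest in replicate 3 of both groups, and their part in the levels of the members was not tested.

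**Figure D2:**
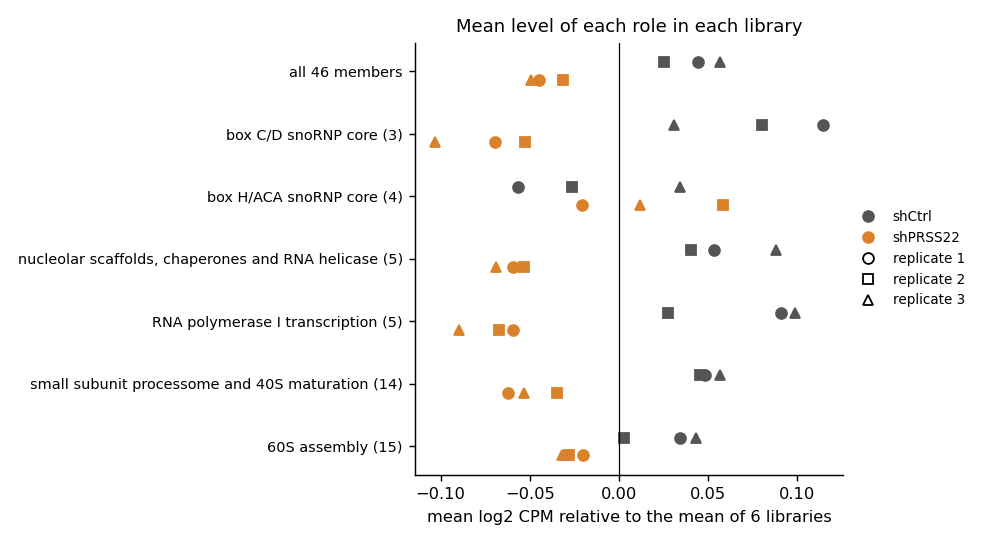
Mean log2 CPM relative to the mean of the 6 libraries, for all 46 members and for each role, with a symbol per library (grey shCtrl, orange shPRSS22). The groups separate for all members together and for each role except the box H/ACA genes.

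Among genes for RNA polymerase I transcription, 3 of 5 were lower and 0 higher (median log2 fold change -0.20). That was 60% and 0%, beside 19.3% and 19.9% of all tested genes. Each role holds few genes, and differences between roles were not tested. UBTF, the upstream binding factor that occupies ribosomal DNA, stood at 72.8, 66.1 and 75.5 CPM in shCtrl and at 58.8, 60.1 and 55.3 CPM in shPRSS22. The groups did not overlap, and UBTF fell by 0.30 on the log2 scale (SE 0.0503; edgeR quasi-likelihood test, adjusted p = 1.56e-05). TAF1D, a subunit of the promoter selectivity factor, was at 69.7 to 72.2 CPM in shCtrl and 54.7 to 63.3 CPM in shPRSS22 and fell by 0.26 (SE 0.0492). POLR1A, the largest catalytic subunit, was at 88.2 to 90.2 CPM in shCtrl and 75.3 to 81.6 CPM in shPRSS22 and fell by 0.20 (SE 0.0427). Neither gene's groups overlapped. POLR1B, the second catalytic subunit, had a log2 fold change of -0.069, SE 0.0438 and POLR1C, a subunit shared with RNA polymerase III, one of 0.10, SE 0.0549; neither passed. UBTF lies at chr17:44205033-44221626 and TAF1D at chr11:93729948-93784391 (GRCh38, both on the minus strand). Exons of both overlap exons of genes on the other strand, and no strand marking is described for these libraries, so reads there cannot be told apart. The same holds for NOB1, PES1 and MRTO4 among the called members. Exons of the called members RRS1 and LTV1 overlap exons of other genes on their own strand. Those of NOP56, NOP58, TAF1D and BOP1 overlap small RNA genes there.

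Of the box C/D core genes, 2 of 3 were lower (median -0.19), 66.7% beside 19.3% of all tested genes. NOP56 and NOP58 are the paired scaffold proteins of these particles. NOP56 was at 152 to 160.4 CPM in shCtrl and 136 to 138 CPM in shPRSS22 and fell by 0.19 (SE 0.0355). NOP58 was at 92.0 to 99.5 CPM in shCtrl and 82.3 to 87.0 CPM in shPRSS22 and fell by 0.19 (SE 0.0420). Neither gene's groups overlapped. FBL, fibrillarin, the methyltransferase of the particle, stood at 126, 123 and 120.3 CPM in shCtrl and at 115, 124 and 112 CPM in shPRSS22. Replicate 2 of the knockdown lay inside the control range, and the log2 fold change of -0.073 (SE 0.0402) did not pass. It passed on omitting replicate 2 of shPRSS22 (adjusted p = 0.0270 at -0.11) in edgeR's test, with adjusted p from 0.0270 to 0.473 over all alternatives.

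Box H/ACA genes, whose products make pseudouridine and also hold telomerase RNA, had 1 of 4 higher and 0 lower (median -0.017). That was 25% and 0%, beside 19.9% and 19.3% of all tested genes. NOP10, the smallest core protein, was at 51.4, 44.2 and 46.6 CPM in shCtrl and at 54.7, 58.0 and 54.5 CPM in shPRSS22. Each knockdown library lay above each control library, and NOP10 rose by 0.23 (SE 0.0541; edgeR quasi-likelihood test, adjusted p = 0.000840), more than any other member. It lies at chr15:34341713-34343177 (GRCh38, minus strand). DKC1, dyskerin, the pseudouridine synthase, was at 109 ± 0.108 CPM in shCtrl and 109 ± 1.41 CPM in shPRSS22 (SD, n = 3), a log2 fold change of -0.0057, SE 0.0374. NHP2 (-0.029, SE 0.0498) and GAR1 (-0.078, SE 0.0783), the remaining core proteins, did not pass either.

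Nucleolar scaffold, chaperone and helicase genes were lower in 3 of 5 (median -0.12), 60% beside 19.3% of all tested genes. NPM3, a histone chaperone of the nucleoplasmin family, stood at 56.1, 55.3 and 59.0 CPM in shCtrl and at 45.1, 45.4 and 45.1 CPM in shPRSS22. Its knockdown libraries lay close together and below each control, and NPM3 fell by 0.33 (SE 0.0495; edgeR quasi-likelihood test, adjusted p = 2.85e-06). NCL, nucleolin, an abundant RNA-binding protein of the nucleolus, was at 655, 675 and 663 CPM in shCtrl and at 579, 582 and 585 CPM in shPRSS22 and fell by 0.19 (SE 0.0326) without overlap. NOLC1, which escorts snoRNPs, fell by 0.12 (SE 0.0347, adjusted p = 0.00753). Its call was lost on omitting replicate 3 of shCtrl (adjusted p = 0.0692 at -0.093), with adjusted p from 0.00212 to 0.0692 over all alternatives. NPM1, nucleophosmin, the most abundant member, stood at 1266, 1278 and 1298 CPM in shCtrl and at 1262, 1299 and 1239 CPM in shPRSS22. Its groups overlapped, and the log2 fold change was -0.016 (SE 0.0344). NPM1 has 45 named pseudogenes in GENCODE 29 and its counts carried decimals in 3 libraries, so its level is uncertain. The helicase gene DDX21 had a log2 fold change of 0.046, SE 0.0322 and did not pass.

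Genes of the small subunit processome and of 40S maturation were lower in 4 of 14 and higher in 2 (median -0.086). That was 28.6% and 14.3%, beside 19.3% and 19.9% of all tested genes. UTP20 and NOB1, both in this role, had the largest falls of all members. UTP20, a very large repeat protein of the processome, was at 28.5, 24.6 and 23.8 CPM in shCtrl and at 18.8, 18.9 and 18.4 CPM in shPRSS22. Its groups lay apart, and UTP20 fell by 0.45 (SE 0.0744; edgeR quasi-likelihood test, adjusted p = 1.08e-05). NOB1, the endonuclease that makes the final end of the small subunit RNA, was at 116, 106 and 114 CPM in shCtrl and at 85.9, 90.2 and 89.2 CPM in shPRSS22. It fell by 0.34 (SE 0.0413, adjusted p = 5.62e-08) without overlap. NAT10, which acetylates cytidines in the small subunit RNA, was at 104, 102 and 104 CPM in shCtrl and at 82.6, 84.7 and 82.7 CPM in shPRSS22. Replicates lay close together in both groups, and NAT10 fell by 0.32 (SE 0.0395, adjusted p = 1.02e-07). On GRCh38, UTP20 lies at chr12:101280109-101386616 (plus strand), NOB1 at chr16:69741867-69754940 (minus strand) and NAT10 at chr11:34105602-34147670 (plus strand). RRP9, which binds the U3 small nucleolar RNA, fell by 0.21 (SE 0.0632). Its call was lost on omitting replicate 1 of shPRSS22 (adjusted p = 0.0510 at -0.18), on omitting replicate 3 of shPRSS22 (adjusted p = 0.0749 at -0.15) and with DESeq2 on all 6 libraries (adjusted p = 0.0506 at -0.20), with adjusted p from 0.000319 to 0.0749 over all alternatives.

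The higher genes of this role were LTV1 and WDR43. LTV1, a factor on the exported 40S precursor, was at 44.9, 44.4 and 43.2 CPM in shCtrl and at 47.6, 47.0 and 54.5 CPM in shPRSS22. Replicate 3 of the knockdown was the highest library, and LTV1 rose by 0.17 (SE 0.0560; edgeR quasi-likelihood test, adjusted p = 0.0167). That call was lost on omitting replicate 3 of shCtrl (adjusted p = 0.0593 at 0.16), on omitting replicate 3 of shPRSS22 (adjusted p = 0.182 at 0.10) and with DESeq2 on all 6 libraries (adjusted p = 0.0701 at 0.17), with adjusted p from 0.00587 to 0.182 over all alternatives. WDR43, a processome subunit that links it to transcription, was at 156, 158 and 160.3 CPM in shCtrl and at 178, 166 and 167 CPM in shPRSS22. Its groups did not overlap, and WDR43 rose by 0.11 (SE 0.0358, adjusted p = 0.0169). Its call was lost on omitting replicate 1 of shCtrl (adjusted p = 0.0742 at 0.10), on omitting replicate 2 of shCtrl (adjusted p = 0.0513 at 0.11), on omitting replicate 1 of shPRSS22 (adjusted p = 0.139 at 0.076) and with DESeq2 on all 6 libraries (adjusted p = 0.0505 at 0.11), with adjusted p from 0.00754 to 0.139 over all alternatives. UTP4 (0.032), UTP15 (-0.13), WDR75 (-0.081) and HEATR1 (-0.036), which share that module with WDR43, did not pass. NOP14 (-0.10), RRP12 (-0.090), BYSL (0.012) and TSR1 (0.034), all assembly factors of the same precursor, did not pass. RRP12 passed on omitting replicate 3 of shPRSS22 (adjusted p = 0.0176 at -0.14), with adjusted p from 0.0176 to 0.501 over all alternatives.

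**Figure D3:**
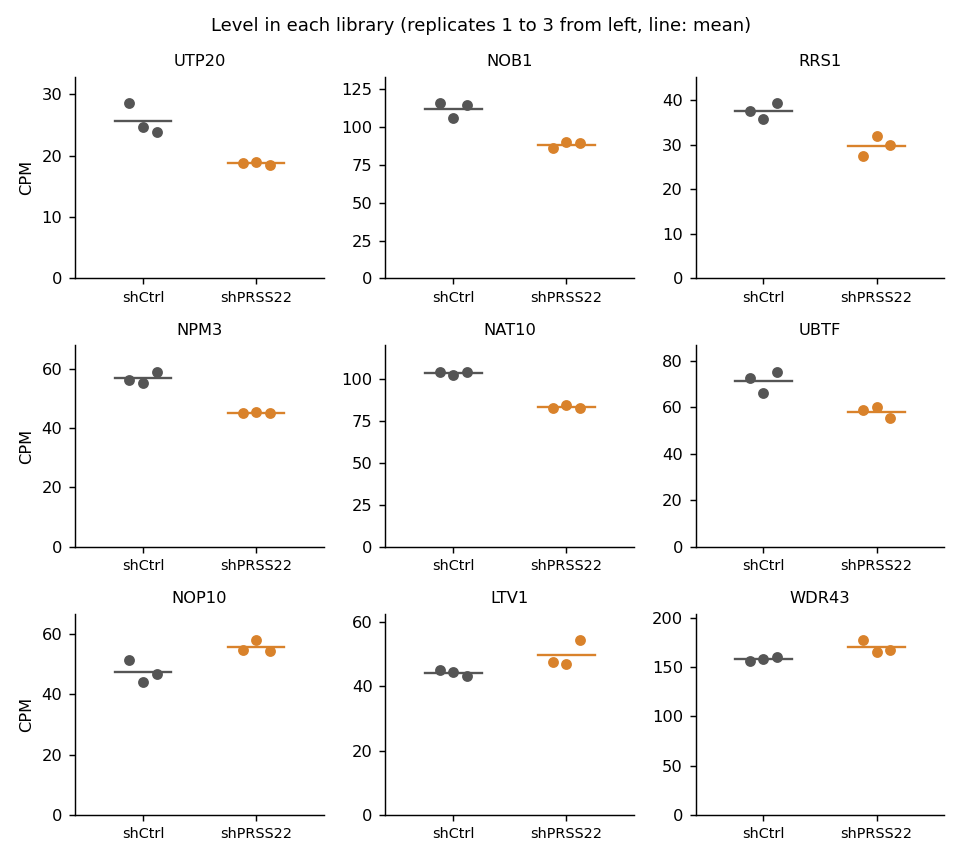
CPM in each library (axes from 0, points are replicates 1 to 3 from left, lines are means) for the called members with the lowest and the highest log2 fold changes whose groups do not overlap. NPM3 and NAT10 show close knockdown replicates, and for LTV1 knockdown replicate 3 stands above the other two.

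Among 60S assembly genes, 4 of 15 were lower, 0 higher and 11 not called (median -0.017). That was 26.7% lower and 0% higher, beside 19.3% and 19.9% of all tested genes. RRS1, which helps to load a small ribonucleoprotein onto the precursor, was at 37.6, 35.9 and 39.3 CPM in shCtrl and at 27.5, 31.9 and 30.04 CPM in shPRSS22. Its groups did not overlap, and RRS1 fell by 0.33 (SE 0.0623; edgeR quasi-likelihood test, adjusted p = 6.75e-05). MRTO4, a placeholder for the ribosomal stalk, fell by 0.15 (SE 0.0576). PES1 and BOP1, which form a complex with WDR12, fell by 0.13 (SE 0.0485) and 0.13 (SE 0.0509), although the groups of each overlapped. WDR12 was at 75.3 to 77.3 CPM in shCtrl and 69.3 to 72.0 CPM in shPRSS22, a log2 fold change of -0.10, SE 0.0428, adjusted p = 0.0529. It passed with plain library totals (adjusted p = 0.0478), with adjusted p from 0.0346 to 0.179 over all alternatives.

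The 3 small falls of MRTO4, PES1 and BOP1 did not hold under several alternatives. The call of MRTO4 was lost on omitting replicate 1 of shCtrl (adjusted p = 0.206 at -0.11), on omitting replicate 3 of shCtrl (adjusted p = 0.0572 at -0.16), on omitting replicate 1 of shPRSS22 (adjusted p = 0.0837 at -0.15), on omitting replicate 3 of shPRSS22 (adjusted p = 0.132 at -0.12) and with DESeq2 on all 6 libraries (adjusted p = 0.142 at -0.15), with adjusted p from 0.0218 to 0.206 over all alternatives. For PES1 it was lost on omitting replicate 3 of shCtrl (adjusted p = 0.254 at -0.079), on omitting replicate 1 of shPRSS22 (adjusted p = 0.151 at -0.10), on omitting replicate 2 of shPRSS22 (adjusted p = 0.0943 at -0.11) and with DESeq2 on all 6 libraries (adjusted p = 0.116 at -0.13), with adjusted p from 0.00600 to 0.254. For BOP1 it was lost on omitting replicate 1 of shCtrl (adjusted p = 0.110 at -0.13), on omitting replicate 2 of shCtrl (adjusted p = 0.136 at -0.12), on omitting replicate 3 of shCtrl (adjusted p = 0.0703 at -0.14), on omitting replicate 2 of shPRSS22 (adjusted p = 0.0510 at -0.14), on omitting replicate 3 of shPRSS22 (adjusted p = 0.364 at -0.057) and with DESeq2 on all 6 libraries (adjusted p = 0.137 at -0.13), with adjusted p from 0.00653 to 0.364.

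The remaining 60S genes had log2 fold changes from -0.075 (NOC2L) to 0.089 (NOP2, an RNA methyltransferase), and none passed. GNL3, nucleostemin, a nucleolar GTPase, stood at 194 to 205 CPM in shCtrl and 204 to 215 CPM in shPRSS22 (0.068, SE 0.0346). It passed in edgeR's test on omitting replicate 3 of shPRSS22 (adjusted p = 0.0475 at 0.090), with adjusted p from 0.0475 to 0.406 over all alternatives. NOP2 passed on omitting replicate 3 of shCtrl (adjusted p = 0.0434 at 0.13), with adjusted p from 0.0434 to 0.310. The assembly factors PPAN (-0.063), NIP7 (-0.017), RRP1 (-0.012), BRIX1 (-0.0038), EBNA1BP2 (0.0018), RRP1B (0.020) and NOP16 (0.045) lay between these.

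Of the 19 calls, 11 lower and 1 higher held in each of the 6 fits that left out a library and in each other alternative without a fold threshold, DESeq2 included. These were NOP56, NOP58, NCL, NPM3, POLR1A, TAF1D, UBTF, UTP20, NOB1, NAT10 and RRS1 among the lower and NOP10 as the higher one. DESeq2 called 12 members lower and 1 higher, 26.1% and 2.17%, beside 13.4% and 14.7% of the genes it tested. The authors' deposited table has 12 members lower and 1 higher at a q-value under 0.05, 26.1% and 2.17%. Over its 16977 genes with a q-value the shares were 8.89% and 9.69%. Those genes include weakly counted ones that the main test left out, so these shares are not like for like. Decimal counts, which arise where reads are divided among similar sequences, were present for 8 members in at least 1 library and for 0 of the 19 called ones.

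Levels per transcript length, in the deposited TPM, spanned 430-fold in shCtrl, from 4.67 ± 0.442 TPM for UTP20 to 2009.8 ± 31.5 TPM for NPM1 (SD, n = 3), with a median of 56.6 TPM. NOP10 came next at 387 ± 41.3 TPM, followed by FBL at 307 ± 7.80 and NCL at 292 ± 3.95 TPM. Proteins of one complex had unequal transcript levels. In the box H/ACA core, NOP10 and NHP2 (218 ± 11.6 TPM) stood above DKC1 (80.0 ± 0.604 TPM) and GAR1 (50.5 ± 5.96 TPM). NHP2 has 2 named pseudogenes and its counts carried decimals in all 6 libraries, so its level is uncertain. In the box C/D core, FBL stood above NOP56 (155 ± 3.90 TPM) and NOP58 (91.0 ± 3.31 TPM). For RNA polymerase I, POLR1C (66.6 ± 4.38 TPM) stood above POLR1B (17.2 ± 0.728 TPM) and POLR1A (11.6 ± 0.214 TPM). In shCtrl 12 members were above 100 TPM and 6 below 20 TPM. Calls were found along the scale, from NOP10 and NCL near the top to POLR1A and UTP20 at the bottom, UTP20 being at 3.43 ± 0.0586 TPM in shPRSS22.

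**Figure D4:**
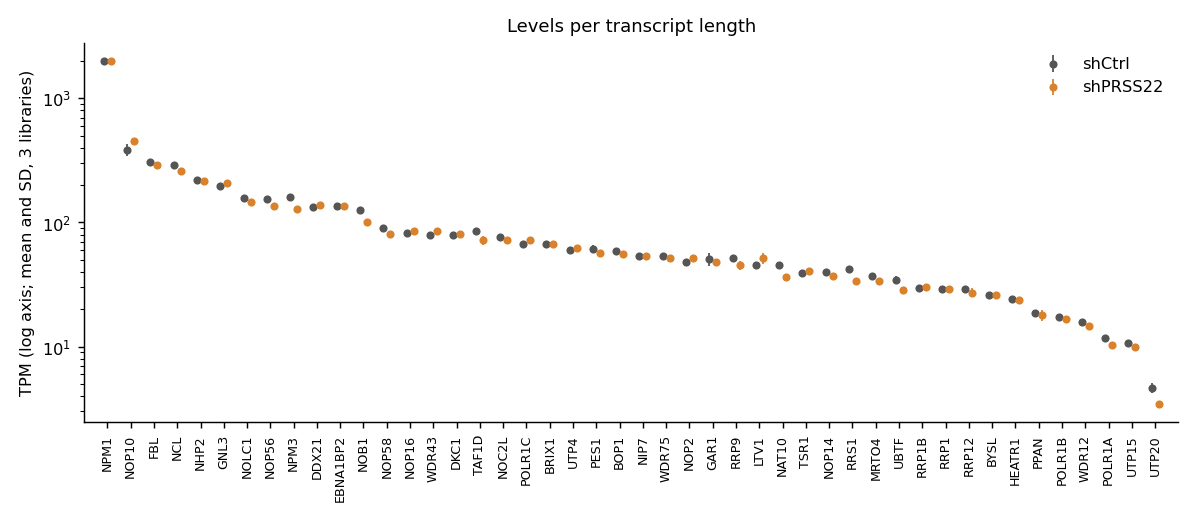
Deposited TPM of each member (log scale, points are means of 3 libraries and bars the SD), ordered by level, grey for shCtrl and orange for shPRSS22. NPM1 stands alone at the top at 2009.8 ± 31.5 TPM in shCtrl, and UTP20 lies lowest at 4.67 ± 0.442 TPM.

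Promoter sequences were compared because many ribosome biogenesis genes carry the E-box CACGTG, the core sequence bound by MYC with MAX. RefSeq promoters (GRCh38.p14, 250 bases before to 50 after each start) were found for 40 members, and CACGTG, which reads the same on both strands, was present in 17 of them, 42.5%. Among the further ribosome biogenesis genes described below, CACGTG was present in 33 of 118 with a promoter, 28.0%. The same letters were present for 12.4% of 10570 tested genes with a promoter and for 8.77% of the 27305 genes of the table. They were found for 3 of 3 members that were higher, 5 of 12 that were lower and 9 of 25 that did not pass. Among all tested genes the motif was present for 11.2% of those higher, 14.8% of those lower and 12.1% of those not called. A match describes these letters and shows no binding. The 250 bases before the start are shown for the member with the largest rise (NOP10), the one with the largest fall (UTP20) and NAT10, in lower case with the E-box in capitals, 5′ to 3′ on the gene's strand: NOP10 from chr15:34343137-34343386 (minus strand), UTP20 from chr12:101279855-101280104 (plus strand) and NAT10 from chr11:34105379-34105628 (plus strand).
NOP10: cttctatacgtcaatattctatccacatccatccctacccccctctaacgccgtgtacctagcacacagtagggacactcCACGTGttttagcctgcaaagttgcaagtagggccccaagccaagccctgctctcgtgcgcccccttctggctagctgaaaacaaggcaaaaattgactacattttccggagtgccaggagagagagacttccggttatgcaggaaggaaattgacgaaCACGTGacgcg
UTP20: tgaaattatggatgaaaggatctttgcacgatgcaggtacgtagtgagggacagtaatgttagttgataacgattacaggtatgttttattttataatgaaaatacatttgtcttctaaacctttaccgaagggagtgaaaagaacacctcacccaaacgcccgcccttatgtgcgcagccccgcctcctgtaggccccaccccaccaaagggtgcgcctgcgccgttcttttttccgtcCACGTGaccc
NAT10: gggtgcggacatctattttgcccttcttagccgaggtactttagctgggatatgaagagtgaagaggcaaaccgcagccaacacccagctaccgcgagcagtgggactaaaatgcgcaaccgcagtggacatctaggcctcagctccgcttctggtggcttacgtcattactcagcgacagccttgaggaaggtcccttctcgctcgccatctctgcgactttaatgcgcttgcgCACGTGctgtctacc

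Distances are counted from the RefSeq starts, which differ from the GENCODE gene positions given above. NOP10 carries 2 E-boxes, whose first bases lie 170 and 11 bases before the start, and those of UTP20 and NAT10 begin 10 and 15 bases before it. By the GENCODE positions, the nearer E-box of NOP10 and that of NAT10 lie inside the gene. In the other 5 called members with the motif it lies across or after the start, and 30 bases around it are shown with the E-box in capitals. LTV1 (chr6:143843354-143843383, plus strand) and WDR43 (chr2:28894658-28894687, plus strand) were higher, and RRP9 (chr3:51941892-51941921, minus strand), MRTO4 (chr1:19251807-19251836, plus strand) and PES1 (chr22:30591880-30591909, minus strand) were lower.
LTV1: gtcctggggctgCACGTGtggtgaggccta
WDR43: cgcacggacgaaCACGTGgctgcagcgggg
RRP9: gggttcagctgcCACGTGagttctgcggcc
MRTO4: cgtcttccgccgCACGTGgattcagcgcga
PES1: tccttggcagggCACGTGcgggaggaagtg

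Some of the members also share a feature of gene structure. Of the 46, 10 enclose at least 1 annotated small nucleolar RNA gene on their own strand (GENCODE 29), 21.7%, where 1.79% of 12775 tested genes with an annotation do so. They hold 36 such genes, 8 of them in TAF1D, 6 in GNL3, 5 in NOP56 and 4 in NOP58. Of these hosts TAF1D, NOP56, NOP58 and NCL were lower and WDR43 was higher, while GNL3, DKC1, TSR1, PPAN and POLR1C did not pass. Over all members 34.8% were lower and 6.52% higher, and over all tested genes 19.3% and 19.9%. Whether the 10 hosts differ from these was not tested. The small RNAs themselves were not analysed here.

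The wider ribosome assembly machinery had shares of calls near the background. Over 137 further genes, 28 were lower and 23 higher, 20.4% and 16.8%, near the 19.3% and 19.9% of all tested genes, with a median log2 fold change of -0.029. Without shCtrl replicate 1 the number higher was 14. The difference between the members and these genes was not tested. Other RNA polymerase I and selectivity factor genes were lower in 4 of 11 and higher in 2 (median -0.12), with the polymerase subunit POLR1G at -0.30, SE 0.0831 and the selectivity factor subunit TAF1A at 0.22, SE 0.0665. The number higher was 1 with either of shCtrl replicates 1 and 3, or shPRSS22 replicate 3, left out. Other small subunit genes were lower in 6 of 47 and higher in 7 (median -0.022), with the processome gene UTP3 at -0.37, SE 0.0536 and the helicase gene DDX52 at 0.26, SE 0.0506. Here the number lower was 3 without shCtrl replicate 1 or 3, and the number higher was 4 without shPRSS22 replicate 3.

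Other 60S genes were lower in 13 of 52 and higher in 8 (median -0.054). That was 25% and 15.4%, beside 19.3% and 19.9% of all tested genes. NOL12 was at -0.39, SE 0.1197 and RSL24D1, an assembly factor related to a ribosomal protein, at 0.27, SE 0.0325. The number higher was 4 without shCtrl replicate 1 or 2 and 5 without shPRSS22 replicate 3. Nuclease and exosome genes were lower in 3 of 16 and higher in 4 (median 0.0087). The exosome subunit genes EXOSC5 (-0.28, SE 0.0858) and EXOSC6 (0.30, SE 0.0766) had the largest fall and rise. EXOSC5 lost its call on omitting replicate 2 of shCtrl (adjusted p = 0.0568 at -0.24), on omitting replicate 3 of shPRSS22 (adjusted p = 0.0818 at -0.19) and with DESeq2 on all 6 libraries (adjusted p = 0.0550 at -0.28), with adjusted p from 0.00421 to 0.0818 over all alternatives, and EXOSC6 on omitting replicate 3 of shCtrl (adjusted p = 0.0559 at 0.32) and on omitting replicate 2 of shPRSS22 (adjusted p = 0.0909 at 0.31), with adjusted p from 3.21e-12 to 0.0909. The number of nuclease and exosome genes higher was 2 without shCtrl replicate 1 or shPRSS22 replicate 2, and the number lower was 1 without shCtrl replicate 2, shPRSS22 replicate 2 or shPRSS22 replicate 3. Genes that assemble snoRNPs were lower in 2 of 11 and higher in 2 (median 0.041), with NOPCHAP1, a chaperone for NOP58, at -0.28, SE 0.0599 and the cochaperone gene RPAP3 at 0.26, SE 0.0481. The number higher was 1 without shPRSS22 replicate 1. Of a list of 14 snoRNA host genes without a long reading frame, 0 were found by symbol in the deposited table, so they could not be analysed.

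**Figure D5:**
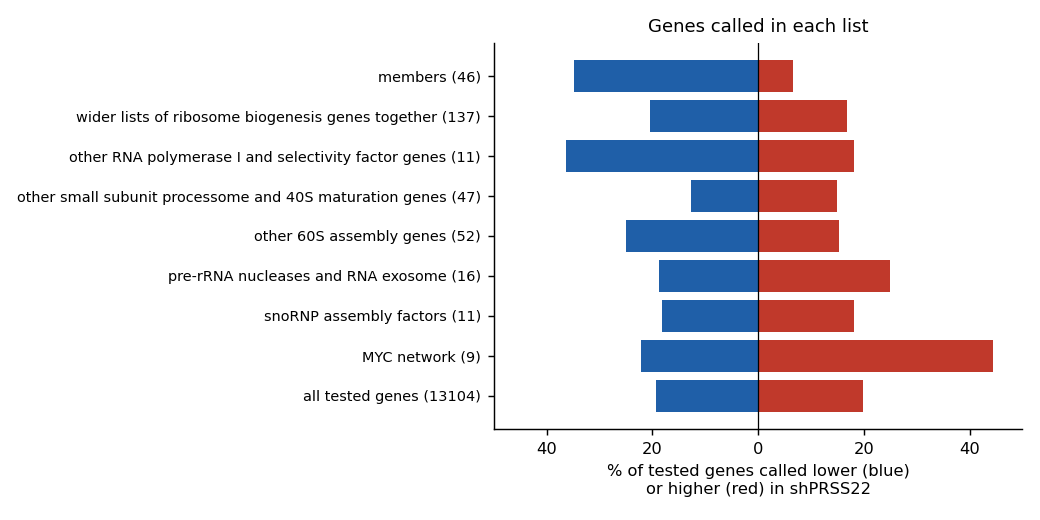
Percent of tested genes called lower and higher in shPRSS22 at adjusted p under 0.05, for the members, the wider lists and all tested genes. The members stand at 34.8% lower and 6.52% higher, and all tested genes at 19.3% and 19.9%.

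MYC, the transcription factor best known for driving ribosome biogenesis, was at 151, 152 and 138 CPM in shCtrl and at 156, 164 and 143 CPM in shPRSS22. The groups overlapped, and the log2 fold change of 0.073 (SE 0.0464) did not pass. It passed in edgeR's test on omitting replicate 3 of shPRSS22 (adjusted p = 0.0144 at 0.13), with adjusted p from 0.0144 to 0.632 over all alternatives. Of the 9 genes of the MYC network, 4 were higher and 2 lower, 44.4% and 22.2% beside 19.9% and 19.3% of all tested genes, and the number lower was 1 with shCtrl replicate 1 or 3, or shPRSS22 replicate 2, left out. MXD1 encodes a MAX partner that represses MYC target genes, and it was at 20.1, 20.3 and 21.7 CPM in shCtrl and at 33.3, 32.3 and 32.9 CPM in shPRSS22. Each knockdown library lay above each control library, and MXD1 rose by 0.67 (SE 0.0641, adjusted p = 5.76e-10), more than any of the 46 members changed. MAX, the common partner, rose by 0.30 (SE 0.0463), and MNT, another repressor of the network, fell by 0.26 (SE 0.0692). Their part in the levels of the members was not tested.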

How the data were processed

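The 6 libraries (3 shCtrl, 3 shPRSS22) were analysed from 1 table. Software is named without roles per the submitters' processing notes: RSEM 1.3.1, Bowtie2 2.3.4.3, HISAT2 2.2.1, FastQC 0.12.1, R 4.3.1 and DESeq2 1.4.5, on GRCh38.p13. Per the file headers, the deposited values per library are estimated counts, TPM, FPKM and a scaled signal. The authors' own comparison was deposited as log2 ratios with a p-value and q-value. FPKM and the scaled signal were not used. Decimal counts were found for 2081 to 2162 genes per library.

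Estimated counts were rounded and tested with edgeR 4.0.16 in R 4.3.3 (filterByExpr, TMM, robust quasi-likelihood F test, two-sided), with Benjamini-Hochberg adjustment over 13104 genes and a threshold of 0.05. The SE is the log2 fold change divided by the root of F. Relative log2 levels used a prior count of 2. On simulated counts for this comparison (12984 genes tested), 42 of 100 genes changed by 0.2 on the log2 scale and 99 of 100 changed by 0.5 were recovered, with 10 false calls. The simulation gave all genes the same dispersion and changed only these genes, none of them weakly expressed. Far more genes were called in the real data, so these figures do not give its power or error. The members and lists were chosen with earlier results of these data known. By rule, values per library are given for the 6 lowest and up to 6 highest called members without overlap, the 3 members highest in TPM, PRSS22 and MYC, and in each wider list up to 2 rises and 2 falls are named. Per-library values of NCL and MXD1, and all ranges, were added after their values were seen. The alternatives were RLE scaling, plain library totals, DESeq2 1.42.0, no filter, counts rounded down, a fold change of at least 1.2, a replicate block and leaving out each library. Gene positions are from GENCODE 29 (GRCh38), and promoters from RefSeq.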

Additional observations from a re-analysis of the deposited data

How the results depend on the processing

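The median log2 fold change of the 46 members lay between -0.079 and -0.062 over all alternatives, and no called member changed direction in any of them. Leaving out a library gave 12 to 15 members lower and 2 to 3 higher. A fold change of at least 1.2 left 1086 genes higher and 1303 lower over all genes and 0 higher and 6 lower among the members, by construction. It left, as higher and lower, 3 and 9 of the wider genes together, 0 and 2 of the other polymerase I genes, 0 and 1 of the other small subunit genes, 1 and 4 of the other 60S genes, 1 and 1 of the nuclease genes, 1 and 1 of the snoRNP assembly genes and 2 and 0 of the MYC network. DESeq2 called 1 member higher and lost RRP9, WDR43, LTV1, BOP1, PES1 and MRTO4. It called 12 higher and 15 lower among the wider genes together, 0 other polymerase I genes higher, 3 other small subunit genes lower, 3 higher and 7 lower among other 60S genes, 2 higher and 0 lower among nuclease genes and 1 lower in the MYC network; the cause was not tested. TAF1A (adjusted p = 0.0651, from 0.00854 to 0.0651 over all alternatives) and NOL12 (0.0722, from 0.00957 to 0.0722) also lost their calls with DESeq2. Over fits without a library the counts ranged from 14 to 19 (wider genes, higher), 1 to 2 (polymerase I, higher), 4 to 7 and 3 to 5 (small subunit, higher and lower), 4 to 7 (60S, higher), 2 to 4 and 1 to 2 (nucleases, higher and lower), 1 to 2 (snoRNP assembly, higher) and 1 to 2 (MYC network, lower). The groups share replicate numbers, but same-numbered libraries deviated together only weakly (r = 0.0842, 0.0939 and 0.196 across 9988 genes), although each library correlated best with its own number. With the replicate block 18 members were lower and 3 higher, and NOP14 (adjusted p = 0.0417, from 0.0417 to 0.195 over all alternatives) and WDR12 (0.0346, from 0.0346 to 0.179) were added; WDR12 also passed with plain library totals (0.0478).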
